A study of Mus musculus with 20 samples.

Results

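The comparison described here sets mouse embryonic stem cells (ESC) sorted as low for both Nanog and Sox2, named state 3 in the labels, against cells sorted as low for Nanog and high for Sox2, named state 2. It rests on 6 of the 20 libraries of the series: the RNA-seq libraries A, B and C of each of the 2 states. Members were chosen by assay and sort label alone, and the measure is log2((state 3 + 1)/(state 2 + 1)) over all 29692 genes of the RNA-seq table. The other libraries of the series are RNA-seq of state 1 (high for both factors) and of the unsorted total population, and small RNA-seq of the same 4 groups. All groups are ESC grown in fetal bovine serum with leukemia inhibitory factor (LIF), the cytokine that holds mouse ESC in self-renewal, and none carries another treatment in the labels. The labels name no ESC line, no reporter or antibody behind the sort and no separate cultures, so any spread the authors' model saw between libraries may be technical. The question the labels set is what differs between cells that are both low for Nanog and part in Sox2.

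Nanog and Sox2 are transcription factors of the pluripotency network, which in serum culture fluctuates so that single ESC pass between a naive state and states closer to differentiation. Sox2 binds enhancers together with Oct4, and ESC that lose it turn toward trophectoderm-like cells. Cells that leave pluripotency usually build actin stress fibres and extracellular matrix, open Hox clusters that Polycomb complexes had kept silent, and stop expressing naive and germline genes.

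The table holds 1 value per gene and group, the authors' normalized signal, so no value below has an error over libraries, and no test over libraries could be run here. A gene was called where the posterior probabilities of the authors' deposited table that set state 3 and state 2 apart summed to at least 0.95. Of the 29692 genes, 8.59% were called, 5.41% higher and 3.19% lower in state 3. Among 12589 protein-coding genes of at least 1 on a CPM-like scale (a value over its column total) in either state the shares were 18.8%, 11.9% and 6.91%, and the counts of called members below are to be read beside these 2 sets of shares. The rises were larger than the falls: the median called rise was 0.79 on the log2 scale and the median called fall 0.52. At least 1 on the log2 scale was reached by 619 of the called rises (38.6%) and by 220 of the called falls (23.2%). The median log2 ratio was 0 over all genes and -0.01 over the 13146 genes above 20 in both states. Estimated from the lowest values of each column, 46.86 M reads stand behind state 3 and 57.23 M behind state 2, so that 3 reads are worth 1.11 and 0.89 value units. Calls were rare at low values: 1 of 12127 genes whose larger value was under 5 was called, against 21.1% of those between 500 and 2000, so a gene not called at a low value was not detectable at this depth and is not shown to be unchanged. In bulk RNA, fewer cells of a type and less RNA per cell cannot be told apart, here and in all that follows.

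**Figure D1:**
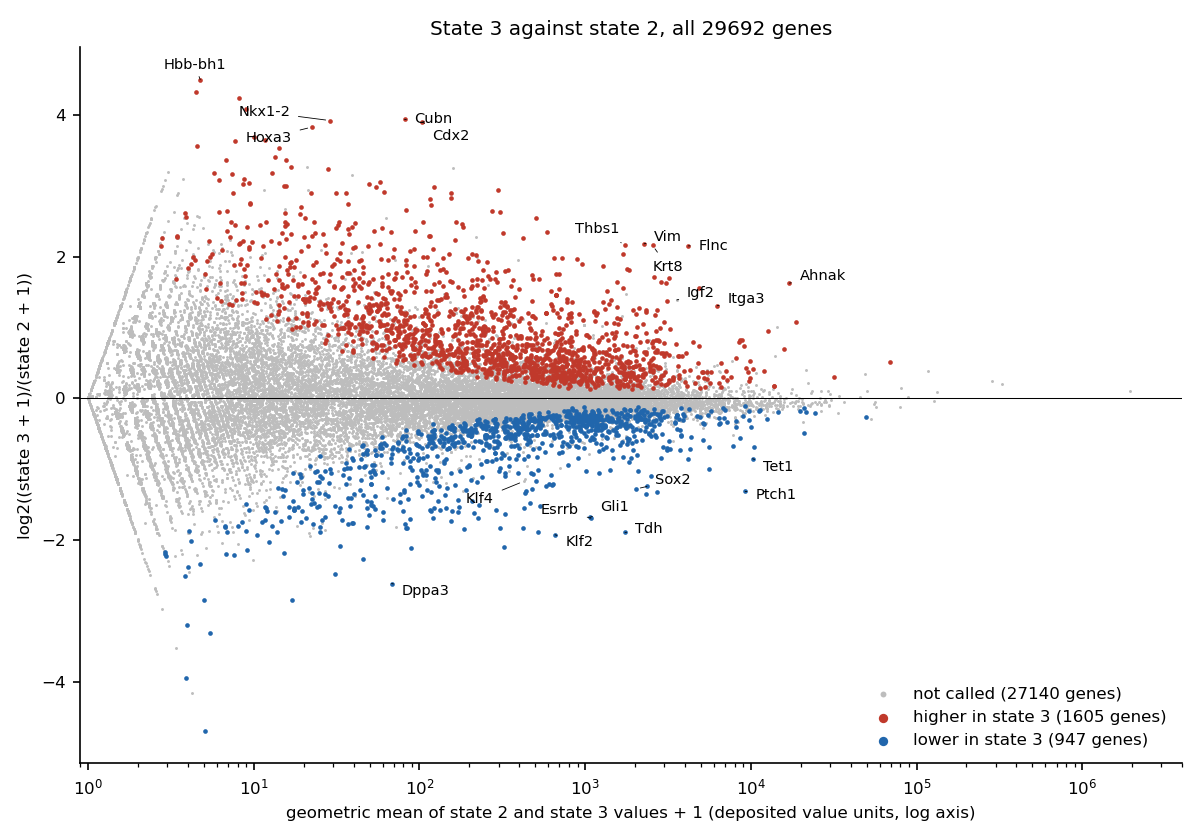
Each point is 1 gene, with the geometric mean of its state 2 and state 3 values plus 1 on the x axis (log axis, deposited value units) and the log2 ratio of state 3 to state 2 on the y axis, both with 1 added. Red points (1605) were called higher and blue points (947) lower in state 3. Called rises reach higher than called falls reach low among genes above 20, and genes not called (grey) fill the left of the plot.

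The genes behind the sort were measured first. Sox2 RNA (ENSMUSG00000074637.7, chr3:34649995-34652461 in GRCm38) was 4155 in state 1, 3167 in state 2, 1306 in state 3 and 3954 in the total population, and it fell by 1.28 on the log2 scale from state 2 to state 3. Nanog RNA (ENSMUSG00000012396.12, chr6:122707489-122714633) was 4145 in state 1, 743 in state 2, 440.0 in state 3 and 2783 in the total population. It also fell, so the 2 states differ in both factors at the RNA level. Pou5f1 (ENSMUSG00000024406.16, chr17:35506032-35510777), which encodes Oct4, had 10275 in state 2 and 9826 in state 3 and was not called. Sox2 levels over the 4 groups followed the labels, with state 3 the lowest.

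The 20 largest rises among genes of at least 5 on the CPM-like scale were led by an endocytic receptor and posterior transcription factors. Cubn (ENSMUSG00000026726.10, chr2:13276338-13491876), which encodes the receptor cubilin, was 6.47 in state 1, 19.8 in state 2, 317 in state 3 and 17.8 in the total population. Its log2 ratio of state 3 to state 2 was 3.94, with a 95% interval of 3.64 to 4.38 from counting error alone. Nkx1-2 (ENSMUSG00000048528.7, chr7:132596239-132599637), a homeodomain factor of the caudal epiblast from which trunk tissue grows, was 2.91 in state 1, 6.4 in state 2, 111 in state 3 and 9.87 in the total population (log2 3.92, counting interval 3.47 to 4.79). Both genes were high in state 3, and the other 3 groups lay far below it.

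Matrix and membrane genes filled much of the rest. Bgn, a small proteoglycan that binds collagen, rose from 16.3 to 141 (log2 3.03), and Loxl4, a lysyl oxidase that crosslinks collagen, rose from 43.4 to 247 (log2 2.48). Cemip, which degrades hyaluronan, rose from 13.4 to 95.2 (log2 2.74), beside Cd44, the hyaluronan receptor (log2 3.05). Pmp22, a tetraspan membrane protein best known from myelin, rose from 57.1 to 410.2 (log2 2.82), and Phldb2, a cortical protein that anchors microtubules near focal adhesions, rose from 207 to 1211 (log2 2.54). Klhdc8a, a kelch-domain protein, rose from 12.3 to 97.9 (log2 2.90).

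The 20 largest falls held naive pluripotency genes, germline genes and a mix of surface and signalling genes. Dppa3 (ENSMUSG00000046323.8, chr6:122626424-122630271), a maternal factor of naive ESC and primordial germ cells, was 162 in state 1, 167 in state 2, 26.5 in state 3 and 146 in the total population (log2 -2.61, counting interval -3.03 to -2.30). Krt42 (ENSMUSG00000053654.7, chr11:100262882-100269951), a type I keratin, was 182 in state 1, 98.7 in state 2, 19.8 in state 3 and 151 in the total population (log2 -2.26). Dppa3 was low in state 3 alone, while Krt42 descended from state 1 over state 2 to state 3. Tdrd12, a piRNA-pathway protein, fell from 350.3 to 97.1 (log2 -1.84), Morc1, which silences transposons in the male germline, from 156 to 43.0 (log2 -1.83), and Tex14, a protein of germ cell bridges, from 216 to 66.0 (log2 -1.69). Gtsf1l, a relative of the piRNA factor Gtsf1, fell from 157 to 47.8 (log2 -1.70), and D1Pas1, a testis helicase of the Ddx3 family, from 108 to 32.3 (log2 -1.71). Tcl1, a coactivator of Akt in ESC, fell from 157 to 43.5 (log2 -1.83), and Pecam1, an adhesion protein of ESC and endothelium, from 577 to 162 (log2 -1.82). Dusp27, an atypical phosphatase, fell from 1005 to 270.5 (log2 -1.89), Dpp4, a surface peptidase, from 150.4 to 43.5 (log2 -1.77), Ptprv, a tyrosine phosphatase also called Esp, from 89.8 to 24.7 (log2 -1.82), and Rinl, a Rab exchange factor, from 280.2 to 84.1 (log2 -1.72).

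In the authors' deposited table, the pattern that sets state 3 apart from 3 equal groups had the highest score for 1175 of the 2552 called genes (46.0%), 770 higher and 405 lower. The pattern in which all 4 groups differ led for 459 genes, and the one in which state 1 and the total population are equal and state 3 and state 2 each differ led for 719. At a score of at least 0.95 the state 3 pattern held for 491 genes, 1.65% of all, 321 of them higher. Vim, the mesenchymal filament vimentin, was 995 in state 1, 1065 in state 2, 4829 in state 3 and 1375 in the total population, so that the 3 other groups lay close together below state 3. Ahnak, a giant scaffold protein of the cell cortex, was 5851 in state 1, 9735 in state 2, 30029 in state 3 and 7933 in the total population, and Sparc, a collagen-binding glycoprotein, 1736 in state 1, 1943 in state 2, 5058 in state 3 and 1819 in the total population. Fstl1, a secreted follistatin relative, was 994 in state 1, 986 in state 2, 2910.2 in state 3 and 1067 in the total population, and Cavin1, a coat protein of caveolae, 979 in state 1, 876 in state 2, 2737 in state 3 and 958 in the total population. Among the 170 lower genes, Tdrd12 was 343 in state 1, 350.3 in state 2, 97.1 in state 3 and 311 in the total population. Abcc4, an efflux transporter of cyclic nucleotides, was 3367 in state 1, 3657 in state 2, 1718 in state 3 and 3342 in the total population, and Pycard, the inflammasome adaptor ASC, 194 in state 1, 152 in state 2, 70.9 in state 3 and 167 in the total population. For each of these 8 genes only state 3 stood apart, high for the first 5 and low for the last 3.

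Hox genes, the homeodomain factors that set position along the body axis, were called higher in 19 of the 39 members measured over the 4 clusters and lower in 0, beside 5.41% of all genes called higher. Cluster A had 7 of 11 higher with a median log2 ratio of 2.49 over its members, cluster B 8 of 10 with 2.21, cluster C 3 of 9 with 1.61 and cluster D 1 of 9 with 1.10. State 3 was the highest of the 4 groups for 35 of the 39 members.

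In cluster A, Hoxa3 (chr6:52169059-52213067) was 2.26 in state 1, 4.94 in state 2, 83.2 in state 3 and 9.14 in the total population, and Hoxa9 (chr6:52223097-52227370) was 1.92 in state 1, 1.8 in state 2, 35.2 in state 3 and 2.04 in the total population. Both were high in state 3 alone. Hoxa10 rose from 2.3 to 40.4 (log2 3.65), Hoxa5 from 4.42 to 42.2 (log2 3.00) and Hoxa4 from 2.09 to 16.4 (log2 2.49). Hoxa2 rose from about 3 reads in state 2 (value 0.92) to 16.4, with a 95% counting interval of the log2 ratio of 2.55 to 6.53. Hoxa7 had 6.72 in state 2 and 24.0 in state 3 and was not called. Hoxa6, Hoxa11 and Hoxa13 lay at or under 3 reads in state 2 and were not called.

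In cluster B, Hoxb2 (chr11:96351632-96354020) was 1.61 in state 1, 4.42 in state 2, 50.9 in state 3 and 6.47 in the total population. Hoxb6 rose from 1.13 to 16.9 (log2 3.07), Hoxb3 from 5.8 to 36.5 (log2 2.46), Hoxb8 from 5.67 to 35.0 (log2 2.43) and Hoxb4 from 5.63 to 32.4 (log2 2.33). Hoxb1 rose from 8.37 to 38.5 (log2 2.08), Hoxb9 from 19.3 to 68.3 (log2 1.77) and Hoxb5 from 8.2 to 26.6 (log2 1.58). Hoxb7 (4.31 in state 2 and 12.2 in state 3) and Hoxb13 (8.16 in state 2 and 21.2 in state 3) were not called. The 6 neighbours from Hoxb6 to Hoxb1 (chr11:96292814-96368254) formed the longest run of adjacent called genes in 1 direction among 15390 protein-coding genes placed on RefSeq positions. Rises were the commoner calls, 11.9% of protein-coding genes of at least 1 on the CPM-like scale against 6.91% for falls. Runs of 4 or more numbered 4, all of rises. The other 3 were Arfgef3, Perp, Tnfaip3, Olig3 and Ifngr1 on chromosome 10, Amotl2, Ryk, Slco2a1, Rab6b and Srprb on chromosome 9, and Klhdc8a, Nuak2, Tmcc2 and Dstyk on chromosome 1.

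Clusters C and D had low values. Hoxc8 rose from 1.76 to 16.2 (log2 2.64), Hoxc6 from 2.86 to 16.7 (log2 2.19), Hoxc9 from 3.74 to 13.7 (log2 1.63) and Hoxd9 from 1.77 to 19.5 (log2 2.89). Hoxd13 had 15.9 in state 2 and 35.4 in state 3 and Hoxc13 14.8 in state 2 and 13.4 in state 3, and neither was called.

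**Figure D2:**
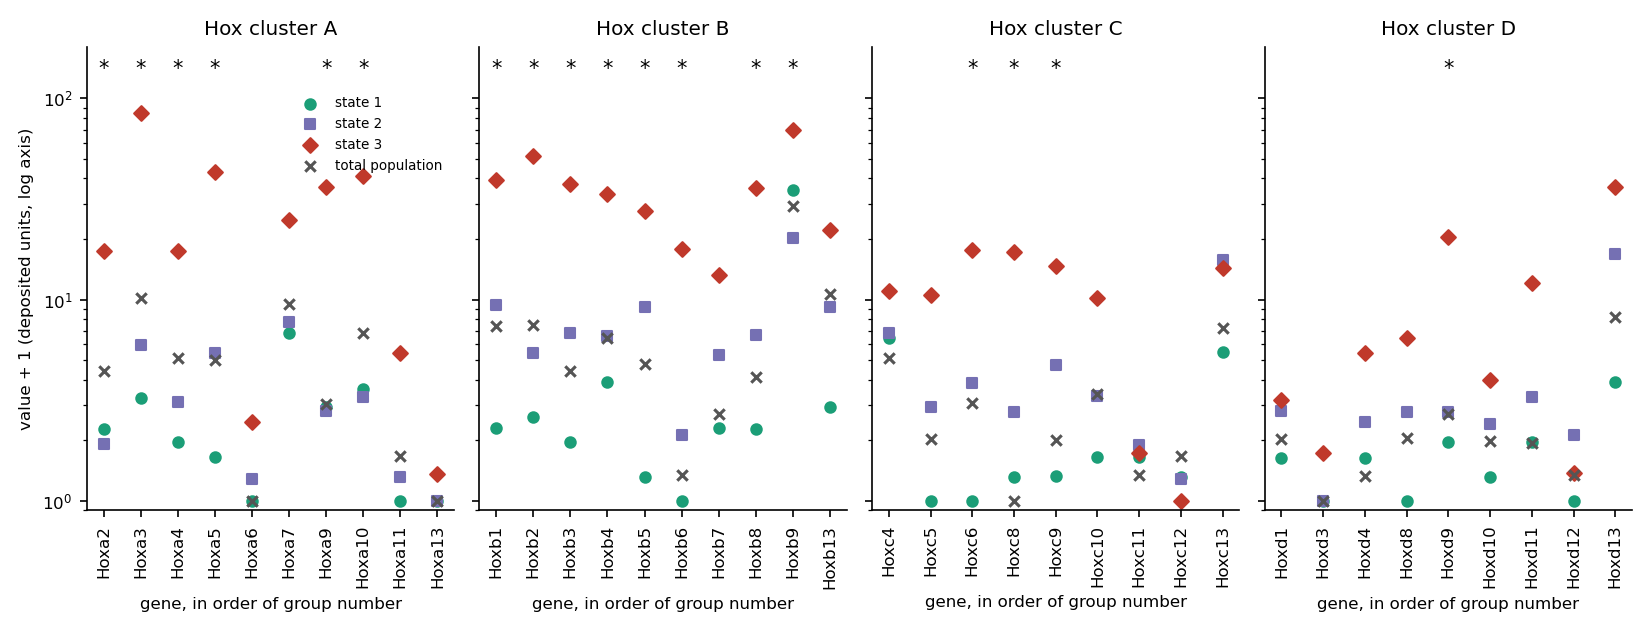
Values plus 1 of 38 of the 39 Hox genes of clusters A to D (log axis, deposited units) in state 1 (circles), state 2 (squares), state 3 (diamonds) and the total population (crosses). Asterisks mark genes called higher in state 3 than in state 2; they cover 6, 8, 3 and 1 of the genes plotted in the 4 clusters, and state 3 is the highest group for 35 of all 39 genes.

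MicroRNA genes lie inside the Hox clusters, and their hairpins were measured in the small RNA libraries D and E, which are other libraries than those behind the Hox values above. The mature sequences are shown because hairpins that share a seed did not all share an order over the states. Capitals mark the seed, bases 2 to 8. miR-10a (chr11:96317186-96317208, next to Hoxb4) and miR-10b (chr2:74726074-74726096, in the Hoxd cluster) share one seed, and miR-196b (chr6:52230129-52230150, minus strand, in the Hoxa cluster) and miR-196a (chr11:96265187-96265208 and chr15:102973365-102973386) share another. The seed of miR-615 (chr15:103014969-103014990, in the Hoxc cluster) matches neither. All but miR-196b lie on the plus strand. Sequences are from RefSeq, GRCm38.p6.
mmu-miR-10a-5p: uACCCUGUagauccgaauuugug
mmu-miR-10b-5p: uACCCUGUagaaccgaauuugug
mmu-miR-196b-5p: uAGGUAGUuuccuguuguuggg
mmu-miR-196a-5p: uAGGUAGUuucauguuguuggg
mmu-miR-615-3p: uCCGAGCCugggucucccucuu
The hairpin mir-196b was 34.6 in state 1, 25.2 in state 2, 77.0 in state 3 and 46.6 in the total population. Its posterior for a difference between state 3 and state 2, summed from the authors' deposited small RNA table, was 1.0. The hairpin mir-10b was 118.9, 219, 506 and 155 in the same order, mir-10a 1026, 1457, 2375 and 1280.3, and mir-615 1.49, 12.3, 64.4 and 11.7. These 3 were highest in state 3 and were not called. The 2 hairpins that give miR-196a had the reverse order, mir-196a-1 with 1732, 370.3, 175 and 1046 and mir-196a-2 with 1297, 284, 128 and 758, and neither was called. The 2 hairpins share a mature sequence, so their reads cannot be told apart here.

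Outside the Hox clusters, 16 of 52 homeobox genes were higher and 2 lower (median log2 0.70). Cdx2, the caudal factor that switches on posterior Hox genes and trophectoderm genes, was 4.18 in state 1, 25.9 in state 2, 400.1 in state 3 and 32.0 in the total population, and its relative Cdx1 rose from 30.3 to 62.1 (log2 1.01). Evx1, a factor of the primitive streak, rose from 1.49 to 14.4 (log2 2.63) and Lhx1, a LIM factor of early mesoderm, from 2.05 to 14.7 (log2 2.36). Meis2 rose from 47.8 to 177 (log2 1.87) and Meis1 from 50.3 to 101 (log2 0.99), TALE factors that bind DNA together with Hox proteins. Irx5 rose from 22.3 to 70.8 (log2 1.62). Otx2, a factor of the anterior epiblast, fell from 335 to 148 (log2 -1.17).

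Of 21 Gata, Tead and Tbx factors, 10 rose and 1 fell. T, the streak factor brachyury, was 4.52 in state 1, 8.09 in state 2, 84.6 in state 3 and 11.97 in the total population. Gata3 rose from 21.1 to 84.0 (log2 1.94), Gata4 from 31.6 to 106 (log2 1.72) and Gata2 from 132 to 278 (log2 1.08), and Tead4, a DNA-binding partner of YAP, rose from 151 to 335 (log2 1.14). Gata6 had 3.14 in state 2 and 30.8 in state 3 and was not called. Tbx3, which helps to hold mouse ESC naive, fell from 372 to 219 (log2 -0.76).

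Of 19 Sox factors 5 rose and 1, the sort gene Sox2, fell. Sox1 rose from 215 to 499 (log2 1.21) and Sox3 from 107 to 309 (log2 1.52), the 2 relatives of Sox2 in the SoxB1 family. Sox11, a SoxC factor of progenitors, rose from 1336 to 2021 (log2 0.60), and Sox17 and Sox7, which act in endoderm and endothelium, rose from 2.65 to 23.6 (log2 2.75) and from 22.9 to 76.5 (log2 1.70). Of 16 Klf factors 1 rose and 3 fell, with Klf2 from 1282 to 337 (log2 -1.93) the largest fall beside Klf8 from 170.3 to 121 (log2 -0.49) and Klf15 from 64.8 to 32.8 (log2 -0.96). Klf6, a factor of mesenchyme, rose from 1735 to 2384 (log2 0.46), a call that a threshold of 0.99 ends, while Klf4 had 637 in state 2 and 282 in state 3 and was not called (posterior 0.785 from the authors' deposited table). Of 14 Snail, Zeb, Twist, E-protein and Id factors 4 rose and 0 fell. Zeb2 rose from 148 to 477 (log2 1.68), Twist1 from 11.5 to 39.1 (log2 1.68) and Twist2 from 11.7 to 31.6 (log2 1.37), factors known from epithelial-mesenchymal transition, and Id2, which blocks E-proteins, rose from 546 to 851 (log2 0.64).

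Genes of contractile actin and stress fibres rose as a group: 37 of 55 were higher and 0 lower, with a median log2 ratio of 0.75. The summed values of the list were 179999.8 in state 1, 220028.6 in state 2, 358086 in state 3 and 192675 in the total population. Acta2, smooth muscle actin, was 11.4 in state 1, 123 in state 2, 763 in state 3 and 126 in the total population. Actc1, cardiac actin, was 0 in state 1, 3.13 in state 2, 42.7 in state 3 and 6.81 in the total population, and Acta1, skeletal actin, 9.03 in state 1, 69.2 in state 2, 391.8 in state 3 and 43.7 in the total population. State 3 was the highest group for all 3 muscle actins, and state 1 the lowest. Their coding sequences are nearly alike, so reads that fit more than 1 of them are an uncertainty in each value. Tagln, which bundles actin in smooth muscle, rose from 978 to 3445 (log2 1.81), Flnc, the muscle filamin, from 1991 to 8848 (log2 2.15), Tpm1, a tropomyosin, from 2825 to 8288 (log2 1.55), and Cnn1, a calponin, from 133 to 325 (log2 1.28). Zyx, a focal adhesion protein that responds to stretch, rose from 796 to 2271 (log2 1.51), and Vcl, vinculin, from 3389.6 to 5873 (log2 0.79). The nonmuscle genes rose less, Actb from 57694 to 82397 (log2 0.51) and Myh9 from 9104 to 17649.8 (log2 0.95). The list also holds annexins and S100 proteins, which bridge membranes and actin. Of these Anxa2 rose from 259 to 1325 (log2 2.35), Anxa1 from 78.1 to 424 (log2 2.42), S100a6 from 484 to 1241 (log2 1.36) and S100a10 from 767 to 1736 (log2 1.18). Outside the list Anxa11 fell from 2984 to 2271 (log2 -0.39), and Anxa7 had 1334 in state 2 and 1382 in state 3 and was not called. Cav1, which forms caveolae, rose from 10.5 to 84.2 (log2 2.89). Actg1 had 43155 in state 2 and 54945 in state 3 and was not called.

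The CArG box, the site of serum response factor that controls muscle actin genes, was searched by its letters in the 300 bases around RefSeq starts (250 before, 50 after), on both strands. It was present in 8 of the 45 contractile genes with a promoter sequence (17.8%) and in 1.28% of 10017 protein-coding promoters. The list was chosen by function and these counts take in members called or not. Over called rises of at least 1 on the log2 scale the share was 2.14%, and over smaller called rises 2.38%. A promoter sequence was at hand for 86.5% of the 52 list members counted. The 200 bases before the start of 3 called members that hold a match are shown, with the CArG letters in capitals. The same stretch held no match in the called genes Flnc, Tpm1 and Vcl. Actc1 (chr2:114052876-114053075) and Acta1 (chr8:123894776-123894975) lie on the minus strand and Myl9 (chr2:156775264-156775463), a regulatory myosin light chain that rose from 152 to 239.6 (log2 0.65), on the plus strand (RefSeq, GRCm38.p6).
Actc1: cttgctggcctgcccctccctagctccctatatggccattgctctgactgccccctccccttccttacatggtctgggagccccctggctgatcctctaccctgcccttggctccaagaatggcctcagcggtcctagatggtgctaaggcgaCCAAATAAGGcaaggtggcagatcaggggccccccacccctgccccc
Acta1: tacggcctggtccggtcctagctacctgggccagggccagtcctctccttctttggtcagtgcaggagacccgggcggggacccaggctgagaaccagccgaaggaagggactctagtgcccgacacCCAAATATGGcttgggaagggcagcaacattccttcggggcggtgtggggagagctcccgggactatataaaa
Myl9: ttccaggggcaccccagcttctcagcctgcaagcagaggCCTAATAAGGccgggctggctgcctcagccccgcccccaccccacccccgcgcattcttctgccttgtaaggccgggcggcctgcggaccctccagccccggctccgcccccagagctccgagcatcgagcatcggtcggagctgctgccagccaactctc
The match begins at base -47 in Actc1, -73 in Acta1 and -161 in Myl9, counted from the start. A match describes the letters only.

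Known targets of YAP, the coactivator that enters the nucleus in spread or stretched cells and acts through TEAD factors, were higher in 17 of 24 cases and lower in 1 (median log2 1.12). Ankrd1, a muscle ankyrin-repeat protein, was 0 in state 1, 2.01 in state 2, 23.5 in state 3 and 4.41 in the total population, and Cyr61, a matricellular protein, 342 in state 1, 1517 in state 2, 3599.9 in state 3 and 718 in the total population. Ctgf, its relative, rose less, from 1069.8 to 1648 (log2 0.62). Tgfb2, a transforming growth factor, rose from 32.2 to 209 (log2 2.66), Nt5e, the surface enzyme CD73, from 76.6 to 266 (log2 1.78), and Myof, a membrane repair protein, from 235 to 683 (log2 1.54). Pathway members on the same list were Wwtr1, the YAP paralog TAZ, which rose from 415 to 988 (log2 1.25), and the angiomotins Amotl1 from 1058 to 2317 (log2 1.13) and Amotl2 from 1918 to 3693 (log2 0.94), which hold YAP at junctions. Yap1 itself had 3357 in state 2 and 3287 in state 3 and was not called. The 1 fall was Dlc1, a GTPase-activating protein, from 5628 to 3112 (log2 -0.85).

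The TEAD letters GGAATG were found, on either strand, in 10 of the 19 list members with a promoter sequence (52.6%) and in 11.6% of the 10017 promoters. The list was made of known targets and pathway members, called or not, so its share is no result about the genes that moved. Over called rises of at least 1 on the log2 scale the share was 13.7%, and over smaller called rises 13.6%. A sequence was at hand for 82.6% of the 23 members counted. The called members shown are given for the 200 bases before the start, all on the minus strand, Ankrd1 at chr19:36119845-36120044, Cyr61 at chr3:145649986-145650185 and Wwtr1 at chr3:57575911-57576110, with the letters or their complement CATTCC in capitals.
Ankrd1: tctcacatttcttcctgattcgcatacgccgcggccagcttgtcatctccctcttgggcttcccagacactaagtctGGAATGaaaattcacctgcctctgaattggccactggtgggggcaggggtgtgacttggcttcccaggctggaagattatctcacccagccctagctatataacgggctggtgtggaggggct
Cyr61: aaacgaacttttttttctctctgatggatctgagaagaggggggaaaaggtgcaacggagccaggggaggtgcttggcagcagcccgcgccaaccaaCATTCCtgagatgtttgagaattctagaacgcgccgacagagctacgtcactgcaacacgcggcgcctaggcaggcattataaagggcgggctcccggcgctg
Wwtr1: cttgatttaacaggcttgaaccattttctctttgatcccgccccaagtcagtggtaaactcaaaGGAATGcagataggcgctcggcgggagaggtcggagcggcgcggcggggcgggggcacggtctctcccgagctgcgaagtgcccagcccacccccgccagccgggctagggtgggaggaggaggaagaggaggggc
The match begins at base -123 in Ankrd1, -103 in Cyr61 and -136 in Wwtr1. These genes were shown because they hold a match, and the same stretch of the called gene Tgfb2 held none.

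Extracellular matrix genes were called higher more often than lower in each of the lists chosen for them. Of 29 basement membrane genes 14 were higher and 0 lower (median log2 0.82). Col4a1 and Col4a2, the collagen IV chains that are made from one shared promoter, rose from 1767 to 5754 (log2 1.70) and from 951 to 3388 (log2 1.83). Lama4, a laminin chain of vessels and mesenchyme, rose from 21.6 to 86.3 (log2 1.95), and Nid1, which links laminin to collagen IV, from 791 to 1681 (log2 1.09). Hspg2, perlecan, had 11423 in state 2 and 17223 in state 3 and was not called.

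Of 37 collagens and collagen enzymes 13 were higher and 1 lower. Col1a2 rose from 15.9 to 83.0 (log2 2.32), Col12a1, a collagen at fibril surfaces, from 24.9 to 135 (log2 2.396), Col5a1, which starts fibrils, from 452 to 1762 (log2 1.96), and Loxl2, a crosslinking oxidase, from 364 to 1437 (log2 1.98). Bmp1, the protease that trims procollagens, rose from 291 to 937 (log2 1.68). Serpinh1, the collagen chaperone, had 1106 in state 2 and 2483 in state 3 and was not called. The 1 fall was Col13a1, a transmembrane collagen, from 144 to 71.3 (log2 -1.01).

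Of 38 matricellular and elastic fibre genes 15 were higher and 1 lower. Thbs1, thrombospondin, was 46.6 in state 1, 819 in state 2, 3678 in state 3 and 437 in the total population, Tnc, tenascin, 0.97 in state 1, 3.89 in state 2, 49.2 in state 3 and 6.8 in the total population. Both were highest in state 3 and lowest in state 1. Igfbp3, an IGF-binding protein, rose from 493 to 1839 (log2 1.90), and Efemp1, a fibulin, from 15.2 to 83.9 (log2 2.39). Fn1, fibronectin, was the 1 fall, from 24793 to 17691 (log2 -0.49).

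Of 29 integrins and other matrix receptors 14 were higher and 1 lower. Itga3, the laminin receptor chain, rose from 3989 to 9869.7 (log2 1.31), Itgb1, the shared beta chain, from 6445 to 11139 (log2 0.79), Itgav from 937 to 1716 (log2 0.87), Itgb3 from 24.7 to 74.9 (log2 1.56) and Sdc3, a syndecan, from 57.3 to 249.8 (log2 2.10). Itgb7, a beta chain of lymphocytes, fell from 97.6 to 40.1 (log2 -1.26). Of 45 matrix proteases and inhibitors 22 were higher and 2 lower. Prss23, a secreted serine protease, was 5.2 in state 1, 42.5 in state 2, 344 in state 3 and 41.2 in the total population. Plau rose from 40.2 to 211 (log2 2.36) and Plat from 38.9 to 128 (log2 1.69), the plasminogen activators. Mmp9, a gelatinase, rose from 84.9 to 271 (log2 1.66), its relative Mmp14 from 1249 to 1874 (log2 0.59), and the inhibitor Timp2 from 58.2 to 206 (log2 1.80). The 2 falls were the membrane proteins Adam19 from 1516 to 1059 (log2 -0.52) and Adam23 from 1970.0 to 1104 (log2 -0.84).

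Epithelial and mesenchymal genes both rose among intermediate filaments and junctions. Of 26 intermediate filament genes 11 were higher and 2 lower. Krt8, a keratin of simple epithelia, was 189 in state 1, 1208 in state 2, 5389 in state 3 and 739 in the total population. Its partner Krt18 was 128 in state 1, 838 in state 2, 3437 in state 3 and 513 in the total population. State 3 was the high group for both, and processed copies of both genes in the genome make their read counts uncertain. Krt19 rose from 191 to 923 (log2 2.27), Krt7 from 70.1 to 249 (log2 1.82) and Nes, nestin of neural and muscle progenitors, from 1759 to 5446 (log2 1.63). The 2 falls were Krt42, given above, and Synm, synemin, from 192 to 106 (log2 -0.85). Lmna, a nuclear lamin that scales with tissue stiffness, rose from 852 to 2048 (log2 1.26), and Lmnb1 had 8625 in state 2 and 7748 in state 3, not called. Of 54 cadherin and junction genes 21 were higher and 1 lower. Dsp, desmoplakin, rose from 1435 to 4715 (log2 1.72) and Dsc2, a desmosomal cadherin, from 74.0 to 353 (log2 2.24). Cdh2, N-cadherin, rose from 227 to 616 (log2 1.43), while Cdh1, E-cadherin, had 12924 in state 2 and 14178 in state 3 and was not called. Tjp1, the tight junction protein ZO-1, rose from 4496 to 5815 (log2 0.37). The 1 fall was Jam2, a junction adhesion molecule, from 249 to 106 (log2 -1.23). Of 29 other surface proteins used to sort ESC and progenitors 6 rose and 2 fell. Ly6a, the stem cell antigen Sca-1, rose from 3.26 to 37.6 (log2 3.18), Ncam1, a neural adhesion protein, from 108 to 439.6 (log2 2.02), and the tetraspanins Cd82 from 3.54 to 19.9 (log2 2.20) and Cd151 from 574 to 994 (log2 0.79). Bcam, a laminin receptor, rose from 2356 to 3657 (log2 0.63) and Cd34 from 54.0 to 99.2 (log2 0.86). Kit, the stem cell factor receptor, fell from 249.8 to 122 (log2 -1.03), as did Pecam1.

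**Figure D3:**
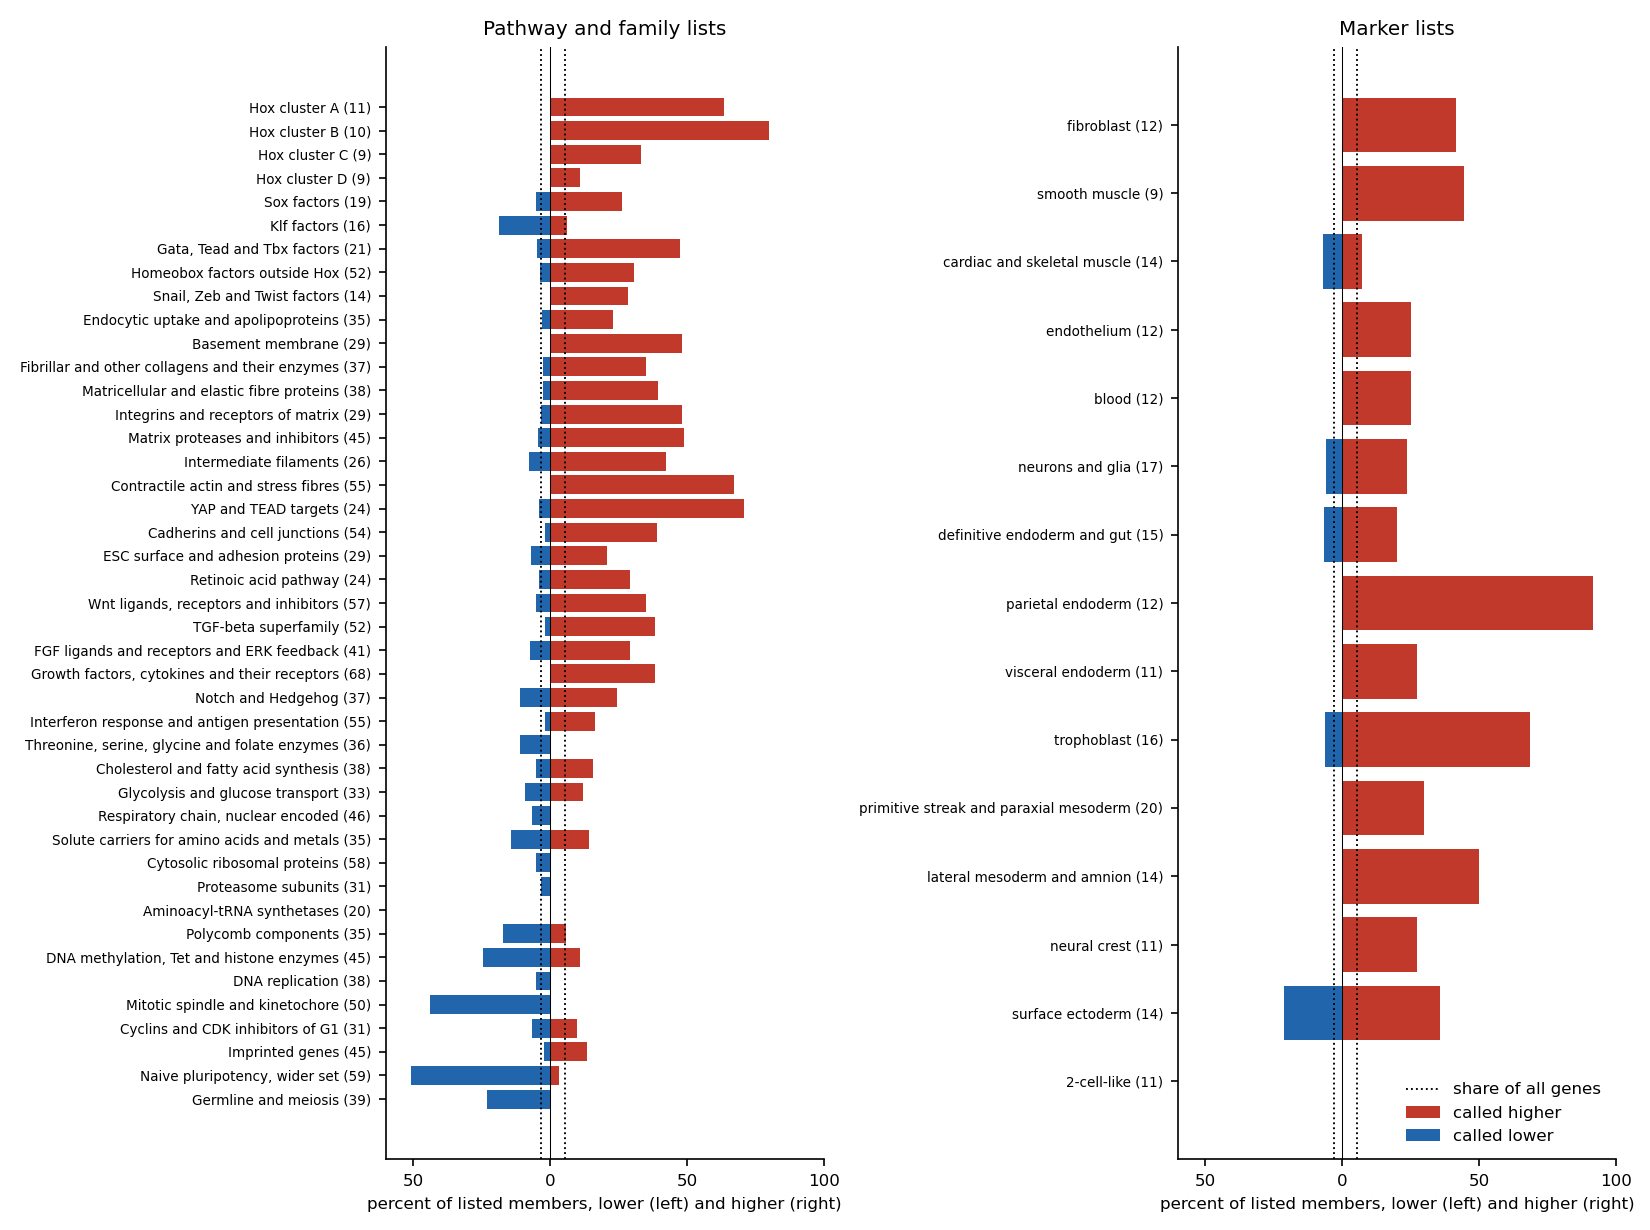
Percent of the measured members of each of the 58 gene lists called higher (red, to the right) or lower (blue, to the left) in state 3 than in state 2, with the number measured in brackets; dotted lines mark the shares over all 29692 genes, 5.41% higher and 3.19% lower. Rises are widest in the parietal endoderm markers (11 of 12), Hox cluster B (8 of 10), YAP and TEAD targets (17 of 24), trophoblast markers (11 of 16) and contractile genes (37 of 55), and falls in the naive (30 of 59) and mitotic (22 of 50) lists.

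Wnt signalling works through secreted ligands, Frizzled and Lrp receptors, and Tcf factors in the nucleus. Of 57 members 20 were higher and 3 lower (median log2 0.89). Ligands led the rises. Wnt6 (chr1:74754342-74785322) was 19.3 in state 1, 18.3 in state 2, 152 in state 3 and 23.6 in the total population, and Wnt4 (chr4:137277635-137299501) 5.86 in state 1, 42.8 in state 2, 308 in state 3 and 32.9 in the total population. Wnt5a, which mostly signals without beta-catenin, rose from 22.5 to 119.6 (log2 2.36), Wnt10a from 10.7 to 57.6 (log2 2.32), Wnt3, the ligand of the primitive streak, from 51.0 to 252 (log2 2.28), and Wnt7a from 17.97 to 81.3 (log2 2.12). Among receptors Fzd10 rose from 226 to 500.0 (log2 1.14) and Fzd2 from 497 to 936 (log2 0.91), while Fzd5 and Fzd7 fell, from 2074 to 1354 (log2 -0.61) and from 4359.7 to 3191 (log2 -0.45). Among nuclear factors Tcf7l2 rose from 565 to 864 (log2 0.61), and Tcf7l1, which represses naive genes, fell from 1235 to 961 (log2 -0.36). A pair of feedback genes of the pathway rose, Sp5 from 43.4 to 123 (log2 1.48) and Lgr5, an R-spondin receptor, from 3.22 to 15.4 (log2 1.96).

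Of 52 members of the TGF-beta superfamily and its pathway 20 were higher and 1 lower. Ligands included Bmp2, which rose from 5.26 to 37.4 (log2 2.62), Bmp8b from 88.8 to 239.8 (log2 1.42), Tgfb3 from 6.75 to 21.6 (log2 1.54) and Tgfb1 from 117 to 215 (log2 0.88). Antagonists rose too, Nog, noggin, from 12.7 to 74.1 (log2 2.45) and Fst, follistatin, from 39.5 to 91.8 (log2 1.20). Tgfbr2, the type II receptor of TGF-beta, rose from 48.5 to 120.4 (log2 1.29) and Smad7, an inhibitor induced by the pathway, from 1472 to 1976 (log2 0.42). The 1 fall was Inhbb, an activin subunit, from 298 to 121 (log2 -1.29). The Nodal partner Tdgf1 (7247 in state 2 and 6630.1 in state 3) and the Nodal targets Lefty1 (2947 in state 2 and 2824 in state 3) and Lefty2 (1314 in state 2 and 2206 in state 3) were not called.

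Growth factors, cytokines and their receptors were higher in 26 of 68 cases and lower in 0. Csf1, the macrophage growth factor, was 2.92 in state 1, 44.8 in state 2, 301 in state 3 and 45.4 in the total population. Edn1, endothelin, rose from 43.9 to 192 (log2 2.11), Hbegf, an EGF family ligand, from 119.7 to 361 (log2 1.58), and its receptor Egfr from 196 to 480.3 (log2 1.29). Pdgfra rose from 4.55 to 43.1 (log2 2.99), Pdgfrb from 21.1 to 70.0 (log2 1.68), and their ligand Pdgfb from 145 to 397 (log2 1.45). Efna5, an ephrin, rose from 97.9 to 388 (log2 1.98), and Lif, the cytokine that the medium also supplies, from 81.2 to 161 (log2 0.98). Igf2, the imprinted growth factor, had 2209 in state 2 and 5784 in state 3, not called.

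Of 41 FGF ligands, receptors and ERK feedback genes 12 rose and 3 fell. Ets1, a transcription factor downstream of ERK, rose from 165 to 517 (log2 1.64), and the ERK phosphatases Dusp6 from 1934 to 3333 (log2 0.78) and Dusp4 from 536 to 1098 (log2 1.03). Fgfr1 rose from 2452 to 3810.2 (log2 0.64) and Fgfr2 fell from 448 to 282 (log2 -0.67). The ligands Fgf18 and Fgf15 fell, from 138 to 44.9 (log2 -1.59) and from 268 to 137 (log2 -0.97). Of 24 retinoic acid pathway genes 7 rose and 1 fell. Crabp2, which carries retinoic acid to the nucleus, rose from 77.7 to 204 (log2 1.38), Rdh10 and Aldh1a3, enzymes of its synthesis, from 153 to 288 (log2 0.91) and from 59.1 to 107 (log2 0.84), and Cyp26b1, which breaks it down, from 2.09 to 12.2 (log2 2.10). Stra8, a retinoic acid target of germ cells entering meiosis, fell from 125 to 44.7 (log2 -1.46).

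Several Hedgehog genes fell. Of the 37 members of the Notch and Hedgehog list 9 rose and 4 fell, and the 4 falls were all Hedgehog genes. Ptch1 (ENSMUSG00000021466.12, chr13:63508328-63573460), the Hedgehog receptor, which is itself a target of the pathway, was 5342 in state 1, 14567 in state 2, 5864 in state 3 and 7498 in the total population. Gli1 (ENSMUSG00000025407.7, chr10:127329882-127341579), a transcription factor and the standard readout of Hedgehog signalling, was 1847 in state 1, 1919 in state 2, 599 in state 3 and 1766 in the total population. Gli2, the main activator, was 3690.3 in state 1, 838 in state 2, 573 in state 3 and 2728 in the total population. These 3 genes did not share 1 order: Ptch1 was highest in state 2, Gli1 lay between 1766 and 1919 in state 1, state 2 and the total population, and Gli2 was highest in state 1. Gli3, mostly a repressor, rose from 859.6 to 1395 (log2 0.70), Smo, the signal transducer, from 1025 to 1381 (log2 0.43), and Gas1, a coreceptor, from 33.6 to 85.9 (log2 1.33). Among Notch genes Notch3 rose from 1461 to 2013 (log2 0.46), Lfng, a Notch glycosyltransferase, from 166 to 296 (log2 0.83), and Dlk1, an imprinted noncanonical ligand, from 68.2 to 197 (log2 1.51).

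**Figure D4:**
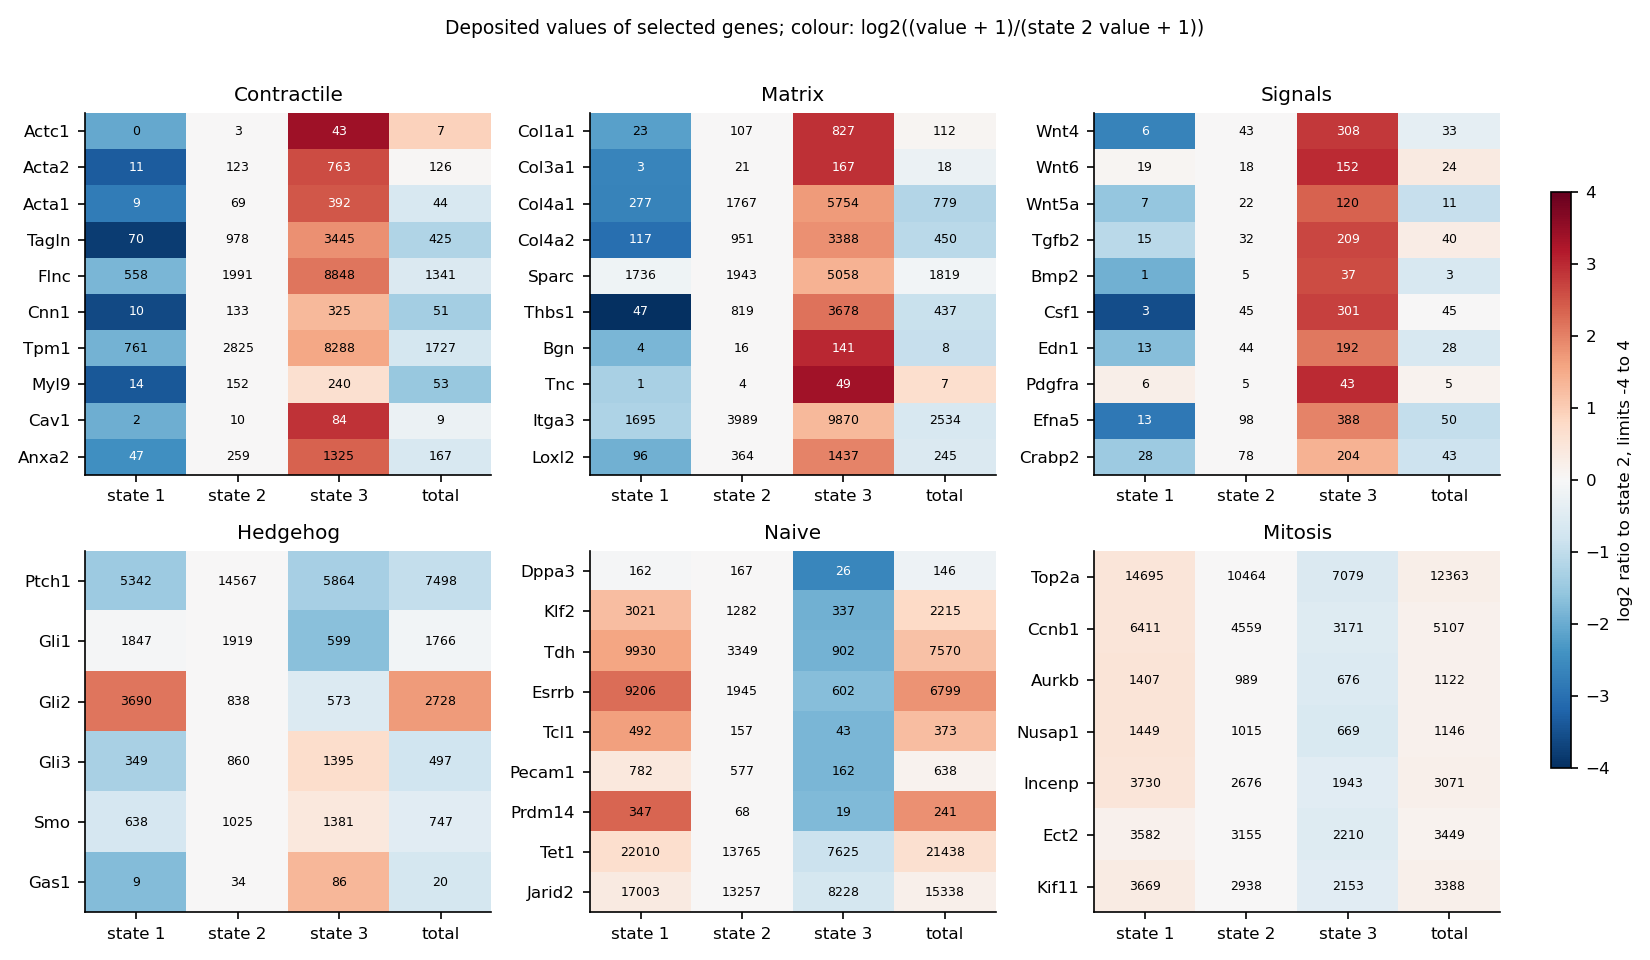
Deposited values (numbers) of 52 genes in state 1, state 2, state 3 and the total population, in 6 panels by role; colour gives the log2 ratio of each value plus 1 to the state 2 value plus 1, in blue below 0 and red above 0. The genes shown were picked with their values known, so a shared order within a panel follows from the choice. Members of the same lists that fell or were not called, such as Fn1, Col13a1, Hspg2, Cenpf and Cdc20, are not shown. Among the genes shown, state 3 is the highest group throughout the contractile, matrix and signal panels and the lowest throughout the naive and mitosis panels. In the Hedgehog panel Ptch1 peaks in state 2 and Gli3, Smo and Gas1 in state 3.

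Some uptake, interferon and antigen presentation genes were called. Of 35 endocytic uptake and apolipoprotein genes 8 rose and 1 fell. Dab2, an adaptor of cubilin and megalin, rose from 172 to 294 (log2 0.77) and Ctsc, a lysosomal protease, from 144 to 372 (log2 1.37), while Lrp2, megalin, the partner of cubilin, had 6417 in state 2 and 9278 in state 3 and was not called. The 1 fall was Glb1, lysosomal beta-galactosidase, from 399 to 274 (log2 -0.54). Of 55 interferon and antigen presentation genes 9 rose and 1 fell. Irf2, an interferon regulatory factor, rose from 15.2 to 66.0 (log2 2.05), Gbp2, a guanylate-binding protein, from 65.4 to 247 (log2 1.90), and B2m, the shared chain of class I molecules, from 126 to 238 (log2 0.92). Ifitm1, a membrane protein of ESC and germ cells, fell from 425 to 243 (log2 -0.80).

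Naive pluripotency genes, in a list of 59 chosen more widely than the core network, fell in 30 cases and rose in 2 (median log2 -0.67). Klf2 (ENSMUSG00000055148.7, chr8:72319062-72321654), a Krüppel-like factor, was 3021 in state 1, 1282 in state 2, 337 in state 3 and 2215 in the total population, and Tdh (ENSMUSG00000021953.14, chr14:63492347-63509092), threonine dehydrogenase, 9930.0 in state 1, 3349 in state 2, 902 in state 3 and 7570.4 in the total population. Both descended from state 1 over state 2 to state 3. Esrrb, an orphan nuclear receptor, fell from 1945 to 602 (log2 -1.69), Nr0b1, a nuclear corepressor, from 273 to 89.9 (log2 -1.59), Nr5a2, an activator of Oct4, from 779 to 278 (log2 -1.48), Tfcp2l1, a LIF target, from 3698 to 1452 (log2 -1.35), and Zfp42, the marker Rex1, from 1441 to 705 (log2 -1.03). Sall4 (10464 in state 2 and 9789 in state 3) and Lin28a (8599 in state 2 and 8968 in state 3), which stay on in the primed epiblast, were not called. The 2 rises were Nrp2, a semaphorin receptor, from 883 to 2316 (log2 1.39), and Igfbp2 from 1501 to 2773 (log2 0.89). Germline and meiosis genes fell in 9 of 39 cases and rose in 0, with Prdm1, the germ cell determinant Blimp1, from 296 to 101 (log2 -1.53), Piwil2, a piRNA-binding protein, from 278 to 143 (log2 -0.96), and Tfap2c from 562 to 270.1 (log2 -1.06). None of 11 markers of 2-cell-like cells was called from the authors' deposited posteriors. Of these, 8 lay under the worth of 3 reads in state 2 and 8 in state 3, so they are not shown to be unchanged.

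Chromatin regulators were called lower more often than higher. Of 35 Polycomb components 6 fell, 2 rose and 27 were not called, with a median log2 ratio of 0.04. Jarid2 (chr13:44730774-44921643), which recruits Polycomb complex PRC2, was 17003 in state 1, 13257 in state 2, 8228 in state 3 and 15338 in the total population. Phc1, a subunit of PRC1, fell from 6303 to 4186 (log2 -0.59), Mtf2, a PRC2 recruiter, from 2239 to 1505 (log2 -0.57), Cbx7, the chromobox protein of ESC, from 1509.6 to 1146 (log2 -0.40), and Eed, a core PRC2 subunit, from 1833 to 1421 (log2 -0.37). Bcorl1, a corepressor, rose from 151 to 358 (log2 1.24). Of 45 DNA methylation, Tet and histone enzymes 11 fell and 5 rose (median log2 -0.105). Tet1 (chr10:62804570-62887469), which oxidises methylcytosine in ESC, was 22009.6 in state 1, 13765 in state 2, 7625 in state 3 and 21438 in the total population. Its relative Tet2 was 6108 in state 1, 1652 in state 2, 1004 in state 3 and 4742 in the total population. Both descended from state 1 over state 2 to state 3. Tet3, the family member of differentiated cells, rose from 1180.4 to 1762 (log2 0.58). Dnmt3l, a cofactor of de novo methylation, fell from 2962 to 1449.8 (log2 -1.03), and Dnmt3b (8874 in state 2 and 7342 in state 3) and Dnmt1 (5411 in state 2 and 4937 in state 3) were not called. Prdm14, which guards the naive state and the germline, fell from 67.8 to 19.15 (log2 -1.77). Kdm6b, which removes the Polycomb mark from histone H3, rose from 1924 to 2558 (log2 0.41). The other rises on that list were Suv39h1, a histone H3 methyltransferase of heterochromatin, from 808 to 1054 (log2 0.38), Mbd2, a reader of methylated DNA, from 293 to 359 (log2 0.29), and Apobec2 from 47.1 to 97.2 (log2 1.03).

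Mitotic genes fell by small amounts: 22 of 50 were lower and 0 higher, with a median log2 ratio of -0.29. Top2a, the topoisomerase that untangles chromosomes, was 14695 in state 1, 10464 in state 2, 7079 in state 3 and 12363 in the total population, and Ccnb1, the mitotic cyclin B1, 6411 in state 1, 4559 in state 2, 3171 in state 3 and 5107 in the total population. State 3 was the lowest of the 4 groups for both. Nusap1, a spindle protein, fell from 1015 to 669 (log2 -0.60), Aurkb, a kinase of chromosome segregation, from 989 to 676 (log2 -0.55), and its partner Incenp from 2676 to 1943 (log2 -0.46). The mitotic kinase Plk1 fell from 2537 to 2211 (log2 -0.20). Cenpf (5971 in state 2 and 4469 in state 3) and Cdc20 (3768 in state 2 and 3724 in state 3) were not called. Of 38 DNA replication genes 2 fell and 0 rose, the clamp loader subunits Rfc5 from 2361 to 1637 (log2 -0.53) and Rfc1 from 2686 to 2295 (log2 -0.23). Of 31 G1 cyclins, kinases and inhibitors 3 rose and 2 fell. Cdkn1c, the imprinted inhibitor p57, rose from 1364 to 3301 (log2 1.27), Ccne2, a cyclin of S phase entry, from 290.2 to 430.0 (log2 0.57), and Mxd4, a Myc antagonist, from 80.9 to 158 (log2 0.96). Mycn, the Myc family member of ESC, fell from 3818 to 2133 (log2 -0.84) and Cdk6, a G1 kinase, from 2309 to 1923 (log2 -0.26).

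Promoters of cell cycle genes are known for CCAAT boxes, bound by NF-Y, and for the cell cycle homology region TTTGAA. Of the 44 mitotic list members with a promoter sequence (91.7% of the 48 counted), 31 held CCAAT (70.5%) and 32 TTTGAA (72.7%) on either strand within the 300 bases. Over the 10017 protein-coding promoters the shares were 39.5% and 11.6%. The list was chosen by function and these counts take in members called or not. Over called falls of at least 1 on the log2 scale the shares were 32.3% and 16.15%, and over smaller called falls 44.1% and 17.4%. The 200 bases before the start of Top2a (chr11:99024190-99024389) and Ccnb1 (chr13:100786487-100786686), both on the minus strand, are shown with these letters or their complements ATTGG and TTCAAA in capitals.
Top2a: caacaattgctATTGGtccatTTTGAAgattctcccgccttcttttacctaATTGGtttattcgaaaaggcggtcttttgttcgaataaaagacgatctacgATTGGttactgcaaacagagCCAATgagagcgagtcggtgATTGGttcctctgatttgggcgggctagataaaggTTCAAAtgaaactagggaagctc
Ccnb1: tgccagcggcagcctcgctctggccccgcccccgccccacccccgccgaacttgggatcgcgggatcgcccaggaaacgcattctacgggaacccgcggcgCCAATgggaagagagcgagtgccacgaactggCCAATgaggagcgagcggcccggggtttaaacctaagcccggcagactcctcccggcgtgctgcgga
Top2a held 7 matches in this stretch and Ccnb1 held 2, both CCAAT. The same stretch of the called gene Nusap1, not shown, held none.

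Housekeeping genes gave few calls. Of 58 ribosomal protein genes 3 fell and 0 rose (median log2 -0.10), Rps23 from 11952 to 10683 (log2 -0.16), Rpl14 from 11947 to 10589.5 (log2 -0.17) and Rps24 from 21871 to 19992 (log2 -0.13), and processed copies of such genes make their counts uncertain. Of 46 nuclear respiratory chain genes 3 fell and 0 rose, Uqcrb of complex III from 1014 to 768 (log2 -0.40) and Cox7b from 1407 to 1083 (log2 -0.38) and Cox6c from 1586 to 1304 (log2 -0.28) of complex IV. Of 31 proteasome genes 1 fell, Psma4 from 2145 to 1920.4 (log2 -0.16), and of 20 aminoacyl-tRNA synthetases 0 were called from the authors' deposited posteriors. Of 36 threonine, serine, glycine and folate enzymes 4 fell and 0 rose. Beside Tdh these were Gcat, the next enzyme of threonine breakdown, from 466 to 347 (log2 -0.42), Shmt1 from 2123 to 1629 (log2 -0.38) and Mtr from 1239 to 1046 (log2 -0.24). Of 33 glycolysis and glucose transport genes 4 rose and 3 fell. The glucose transporters Slc2a3 and Slc2a1 rose, from 6643 to 11742 (log2 0.82) and from 6211 to 8119 (log2 0.39), and Pfkfb3, which makes an activator of glycolysis, from 317 to 708 (log2 1.16), and the lactate exporter Slc16a3 from 755 to 1072 (log2 0.51). The kinases Pdk1 and Pdk4, which hold pyruvate back from oxidation, fell from 2516 to 1352 (log2 -0.90) and from 54.0 to 22.8 (log2 -1.21), and the aldolase Aldoc from 89.8 to 49.6 (log2 -0.84). Of 38 cholesterol and fatty acid genes 6 rose and 2 fell, with Scd2, a desaturase, from 7013 to 11651 (log2 0.73). The falls were Abcg1, a sterol exporter, from 151 to 64.2 (log2 -1.22) and Acacb, a carboxylase that restrains fatty acid oxidation, from 347 to 229 (log2 -0.60). Of 35 amino acid and metal carriers and related genes 5 rose and 5 fell. The rises were the amino acid carriers Slc6a9 from 160.3 to 221 (log2 0.46), Slc6a6 from 2549 to 3184 (log2 0.32), Slc7a6 from 1488 to 1767 (log2 0.25) and Slc38a1 from 3707 to 4366 (log2 0.24) and the zinc carrier Slc39a1 from 772 to 1081 (log2 0.48). The falls were the iron exporter Slc40a1, ferroportin, from 196 to 125 (log2 -0.65), the metal carriers Slc39a14 from 3236 to 2226 (log2 -0.54) and Slc39a4 from 161 to 111 (log2 -0.53), the amino acid carrier Slc38a2 from 7349 to 5785 (log2 -0.34) and Mt1, a metallothionein, from 667 to 408 (log2 -0.71).

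Of 45 imprinted genes 6 rose and 1 fell. Rtl1, a paternally expressed gene of the Dlk1 cluster, rose from 6.47 to 36.4 (log2 2.33). It has an antisense gene whose reads may be counted with it, and Dlk1 itself is given above. Mest rose from 1795 to 3148 (log2 0.81) and Grb10, an inhibitor of insulin signalling, from 6643 to 9861 (log2 0.57), and Snrpn fell from 2858 to 2042 (log2 -0.48). Peg10, a retrotransposon-derived gene of placenta, had 10203 in state 2 and 20521 in state 3 and was not called (posterior 0.824 from the authors' deposited table).

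Among noncoding genes, whose reads cannot be separated from those of overlapping genes since no use of strand in counting is stated, 14 of 1975 lincRNAs fell and 6 rose. That is 1.01% called, beside 8.59% of all genes. Lncenc1, a lincRNA of naive ESC, was 611 in state 1, 792 in state 2, 222 in state 3 and 583 in the total population. Of 30 genes named Platr, for pluripotency-associated transcripts found in ESC, 6 fell and 1 rose (median log2 -0.47). They were picked out by name after their values were seen. Platr10 fell from 943 to 560.2 (log2 -0.75), Platr4 from 118 to 63.9 (log2 -0.88) and Platr14 from 78.8 to 28.2 (log2 -1.45), and Platr15 rose from 69.5 to 107 (log2 0.61). Among 264 small nucleolar RNAs 7 rose and 0 fell, a called share of 2.65% that lay under the 8.59% of all genes. Of the rises 5 were U3 genes, the guide of early ribosomal RNA processing. Rnu3a was 1042 in state 1, 1037 in state 2, 2167 in state 3 and 1004 in the total population. The copies Rnu3b1 to Rnu3b4 were listed with equal values, so their reads cannot be told apart. Of the 2 mitochondrial ribosomal RNAs, mt-Rnr1 rose from 109 to 684 (log2 2.64), and mt-Rnr2 had 200.3 in state 2 and 777 in state 3 and was not called. The part of RNA quality in these values was not tested.

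Markers of other cell types were higher beside the matrix, actin and Hox genes. Parietal endoderm markers rose in 11 of 12 cases (median log2 1.54), and their summed values were 7295 in state 1, 9649 in state 2, 22693 in state 3 and 8203 in the total population. Thbd, thrombomodulin, rose from 3.5 to 18.4 (log2 2.11) and Srgn, a secretory granule proteoglycan, from 1.2 to 26.2 (log2 3.63). Of this list, Lama1, Lamb1, Col4a1, Col4a2, Sparc and Nid1 are also on the basement membrane list.

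Trophoblast markers rose in 11 of 16 cases and fell in 1, and their sum went from 3261 to 11482, or from 2053 to 6092 without Krt8. Hand1, a factor of trophoblast giant cells and lateral mesoderm, rose from 11.7 to 56.2 (log2 2.17). Elf5, the factor that marks trophoblast stem cells, was listed at 0 in state 2 and at 0.36 in state 3, under the worth of 3 reads, and Ascl2 (35.0 in state 2 and 53.5 in state 3) and Gcm1 (32.2 in state 2 and 26.1 in state 3), factors of the placental layers, were not called. Tfap2c, shared with germ cells, was the 1 fall.

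Primitive streak and paraxial mesoderm markers rose in 6 of 20 cases (sum 316 to 639, or 309 to 528 without Nkx1-2). Tbx6 (5.62 in state 2 and 6.22 in state 3) and Mesp2 (21.3 in state 2 and 20.3 in state 3), which follow brachyury in the embryo, were not called. Lateral mesoderm and amnion markers rose in 7 of 14 (sum 10077 to 30899, with 342 and 870.4 when Ahnak is left out). Of 12 fibroblast markers 5 rose (sum 632 to 1643, or 525 to 815 without Col1a1). Among them were the fibrillar collagens Col1a1 from 107 to 827 (log2 2.94) and Col3a1 from 21.4 to 167 (log2 2.91). Thy1 (42.0 in state 2 and 59.3 in state 3) and Dcn (2.09 in state 2 and 12.4 in state 3) were not called, and Lum was listed at 0 in state 2. Of 9 smooth muscle markers 4 rose (sum 2203 to 6084, or 1224 to 2639 without Tagln). Smtn, smoothelin, was among them, from 675 to 1063 (log2 0.65). Myh11, the myosin of mature smooth muscle, had 4.42 in state 2 and 2.94 in state 3 and was not called. Of 11 visceral endoderm markers 3 rose, led by Cubn and including Cited1, a transcription coregulator, from 23.5 to 82.8 (log2 1.77), and Ttr was listed at 0 in state 2.

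Of 12 blood markers 3 rose. Hbb-bh1, an embryonic globin, was listed at 0 in state 2 and at 21.6 in state 3, at least 24.3-fold higher against 3 reads over the state 2 group. Runx1, the factor of blood formation, rose from 54.5 to 221 (log2 2.00) and Ptprc, the leukocyte marker CD45, from 1.73 to 9.84 (log2 1.99), while Spi1 (3.21 in state 2 and 2.19 in state 3) and Gata1 (7.23 in state 2 and 3.64 in state 3) were not called. Of 12 endothelial markers 3 rose, Flt1 from 69.1 to 275 (log2 1.98), Kdr from 26.8 to 84.2 (log2 1.62) and Cdh5 from 10.1 to 33.1 (log2 1.62), and Tie1, Tek and Eng were not called. Of 17 neural markers 4 rose and 1 fell, Stmn2, a neuronal stathmin, from 1395 to 2319 (log2 0.73) and Gap43, a growth cone protein, from 372 to 663 (log2 0.83) among the rises and the proneural factor Neurod1 from 166 to 63.5 (log2 -1.37) as the fall. Tubb3, the neuronal tubulin, had 669 in state 2 and 735 in state 3, not called. Of 15 gut endoderm markers 3 rose and 1 fell, the hormone precursor Trh from 1091 to 570.5 (log2 -0.93). Of 11 neural crest markers 3 rose, with Ngfr from 258 to 449 (log2 0.80). Of 14 muscle markers 1 rose, Actc1, and 1 fell, the calcium channel Ryr2 from 133 to 73.6 (log2 -0.84). Of 14 surface ectoderm markers 5 rose and 3 fell. Krt14, a basal keratin, rose from 2.99 to 17.6 (log2 2.22), and the epithelial factors Grhl3 and Grhl2 fell from 346 to 188 (log2 -0.88) and from 1006 to 732 (log2 -0.46), with Tfap2c as the other fall. The part of other cell types in the state 3 values was not tested.

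The same contrast was looked at in the small RNA libraries D and E, which also caught fragments of messenger RNA. Over 3747 protein-coding genes with at least 10 in either state, the median log2 ratio there was 0.08. That minimum was set on the same small RNA values as the ratio. A gene could thus pass through the state in which it was high, which limits the shares below. The 372 genes called higher in RNA-seq had a median of 0.53 in the small RNA table, and 79.0% lay above the median of all. The 312 genes called lower had a median of -0.21, and 28.8% lay above it. Across all 3747 genes Pearson's r between the 2 assays was 0.35 and Spearman's rho 0.35. Across the 684 genes called in RNA-seq r was 0.59 and rho 0.61, both as a description over genes, which are not independent replicates. Picking genes by their RNA-seq difference can itself raise a correlation, so these values do not show closer agreement than the 0.35 over all genes. Flnc fragments were 5.95 in state 2 and 31.1 in state 3 (log2 2.21), Vim 5.45 in state 2 and 22.4 in state 3 (log2 1.86) and Krt8 4.78 in state 2 and 20.5 in state 3 (log2 1.90). Each of these genes reached the minimum of 10 in state 3 only. On the falling side Sox2 was 64.3 in state 2 and 29.6 in state 3 (log2 -1.09), Gli1 11.4 in state 2 and 2.45 in state 3 (log2 -1.84) and Cpsf4l 165 in state 2 and 62.6 in state 3 (log2 -1.38). Gli1 reached the minimum in state 2 only. Among these genes the summed small RNA posterior of the authors' deposited table reached 0.95 for Flnc (0.991) and Cpsf4l. It did not for Vim (0.003), Krt8 (0.55), Sox2 (0.498) and Gli1 (0.719). Some genes went the other way. Nanog, which fell in RNA-seq, had 17.6 in state 2 and 22.3 in state 3 (log2 0.33). Hoxb8 had 21.3 in state 2 and 8.25 in state 3 (log2 -1.27), Fn1 136 in state 2 and 145 in state 3 (log2 0.10) and Tet1 92.7 in state 2 and 103 in state 3 (log2 0.15). None of Nanog, Hoxb8, Fn1 and Tet1 reached 0.95 in the summed small RNA posteriors. In state 2 the RNA-seq values were 184 for Cpsf4l and 5.67 for Hoxb8, near or under their small RNA values, but 3167 for Sox2. Whether the small RNA reads of Cpsf4l and Hoxb8 are fragments of their messenger RNA was not tested. Of the 684 genes 35 also reached 0.95 in the summed posteriors of the authors' deposited small RNA table, and 32 of these had the direction seen in RNA-seq. The others rose in RNA-seq and fell in the small RNA libraries. They were Ric8a (log2 0.24 against -1.72), Spaca6 (0.75 against -0.68) and Traf3 (0.48 against -1.45). The share reaching 0.95 over all 3747 genes was not counted, so the 35 cannot be set against a background. These libraries are not stated to come from other cultures.

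**Figure D5:**
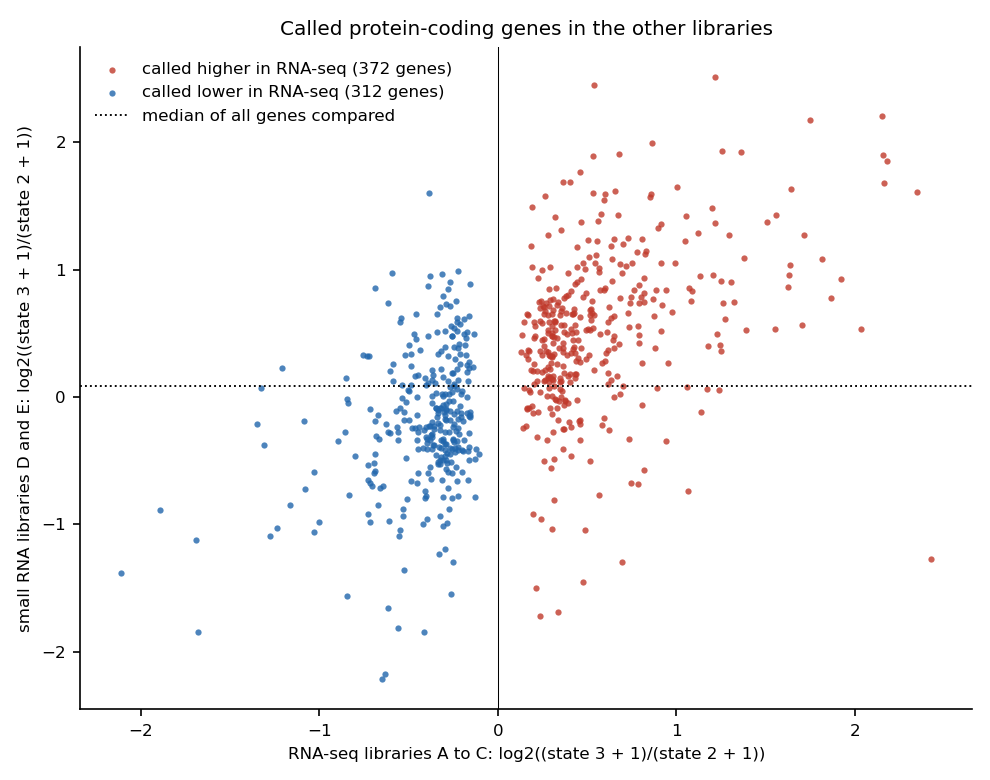
Each point is 1 protein-coding gene called in RNA-seq, with its log2 ratio of state 3 to state 2 in RNA-seq on the x axis and in the small RNA libraries on the y axis (1 added to each value); the dotted line is the median of all 3747 genes compared. Of the 372 genes called higher (red) 79.0% lie above the line, and of the 312 called lower (blue) 28.8% do. Genes were compared where the larger of the small RNA values was at least 10.

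Large ratios were not always called. Among genes of at least 100 in the larger state, 60 had a log2 ratio of at least 1 in either direction without a call, 47 of them higher in state 3. Axl, a receptor tyrosine kinase and YAP target, had 110.5 in state 2 and 445 in state 3 (log2 2.00, posterior 0.921), Cald1, caldesmon of actin filaments, 1059 in state 2 and 2926 in state 3 (log2 1.47, posterior 0.88), and Fbn2, fibrillin, 148 in state 2 and 449.6 in state 3 (log2 1.59, posterior 0.556), with posteriors summed from the authors' deposited table. Arl4c, a small GTPase, had 883 in state 2 and 1787 in state 3 (log2 1.02). On the falling side Khdc3, a maternal factor, had 638 in state 2 and 289 in state 3 (log2 -1.14, posterior 0.362). The 95% interval from counting error was 1.84 to 2.18 for the log2 ratio of Axl. The spread over libraries is not shown by the values used here.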

How the data were processed

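Libraries were grouped by their labels, with A, B and C of each group as RNA-seq and D and E of each group as small RNA-seq. Per the submitters' processing notes, the builds were mm10 and GRCm38 and the tools were RSEM 1.2.30 and STAR 2.4.1d, with no role given there. The tables hold the authors' normalized signal per gene and group, as deposited, with libraries merged by the authors in a way no label describes, and neither scaled to depth units nor to gene length. They also hold, as deposited by the authors, a score from 0 to 1 (a posterior probability) for every one of 15 patterns in which some groups share a level. The file headers do not name the patterns' groups. Their order was inferred from the values: equal groups lay closer than unequal ones in 94.43% of 1453 features under the order used and in 90.78% under the next, which exchanges state 1 and the total population and alters no call of state 3 against state 2.

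Computed here were log2 ratios with 1 added to each value, calls (summed posterior at least 0.95, direction from the values), counting intervals at 95% (exact binomial, counting error only), and counts and medians per list. The CPM-like scale is a value over its column total, scaled as CPM are. Promoters and gene positions are from RefSeq (GRCm38.p6). Promoters were matched by symbol or unique synonym for 10017 of 12253 protein-coding genes of at least 1 on the CPM-like scale (81.8%), with the genes of 1 chromosome left out.

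The members and the 58 gene lists were chosen with earlier results of these data known, so no count is independent support for a list. Genes named are Nanog, Sox2 and Pou5f1, the 20 largest called rises and falls of at least 5 on that scale (without predicted genes, pseudogenes and small RNAs), up to 6 called members of each list and up to 3 not called, and all members where a count was 5 or fewer. A few genes under this rule are not reported here. Other genes given were chosen after their values were seen. Alternatives were other thresholds, pseudocounts, scalings, filters and the exchanged pattern order. Python 3.11.15, pandas 2.3.3, numpy 2.4.6, scipy 1.17.1 and matplotlib 3.10.9 were used.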

Additional observations from a re-analysis of the deposited data

How the results depend on the processing

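The main counts were 1605 genes higher and 947 lower in state 3. With a log2 ratio of at least 1 required beside the posterior they were 619 and 220, and after rescaling by the median ratio with the same minimum 635 and 212. With that minimum and at least 5 on the CPM-like scale in place of the posterior they were 391 and 123, and 449 of these 514 genes (87.4%) also had a posterior of at least 0.95. The fold minimum leaves fewer genes to pass. Thresholds of 0.90 (1777 and 1078) and 0.99 (1271 and 734) and a minimum of 5 on the CPM-like scale (1281 and 803) kept both counts within 1.5 times. Rescaling without a fold minimum and the exchanged pattern order left both counts the same. The exchange could not alter them, since the same patterns set state 3 and state 2 apart under either order. The median rescaling was -0.01 on the log2 scale, under the smallest called ratio of 0.11, so it could turn no called direction. Of the 58 list medians, 2 moved beyond their interval with a pseudocount of 10 (homeobox factors to 0.37, growth factors to 0.52) and, of the 55 lists that could be set against it, 2 with a minimum of 5 on the CPM-like scale (fibroblast markers to 2.91, primitive streak markers to 1.89). A threshold of 0.99 moved 10 list counts: members called higher came to 8 for collagens, 3 for fibroblast markers, 2 for smooth muscle markers, 2 for glycolysis, 3 for carriers, 1 for Polycomb and 0 for Klf factors, and members called lower to 1 each for homeobox, replication and G1 genes. At 0.90 the moved counts were 2 lower for Sox factors, 2 lower for muscle markers and 1 higher for folate enzymes. No paired analysis was possible because the table holds 1 value per group, and for the same reason leaving out libraries A, B or C in turn was not run. Low values limit the calls: 2.49% of genes between 5 and 20 were called.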
